A study of Mus musculus with 48 samples.

Results

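The 10 genes described here make, fold and trim procollagen. They are P4ha1, P4ha2, P4ha3, Plod1, Plod2, Plod3, Serpinh1, Fkbp10, Pcolce and Bmp1, taken by their symbols from a table of 18782 mouse genes, and all 10 were found and passed the filter on low values. The table came from bulk RNA sequencing of the thoracic aorta of 48 wild-type C57BL/6J mice, 1 library per mouse. Mice that drank normal water were the male (MaCon, n = 10) and female (FeCon, n = 10) controls. The other mice were given 0.4% 3-aminopropionitrile (BAPN), which blocks the lysyl oxidases that crosslink collagen and elastin, in the water they drank. Treatment began at the age of 3 weeks and lasted 28 days. At the end of treatment the surviving mice were classed by the pathology of the aorta as having no aortic lesion under the microscope (MaNonAD, n = 4, and FeNonAD, n = 8) or a dissection or aneurysm (MaAAD, n = 7, and FeAAD, n = 9). All groups share the wild-type genotype, and an AAD or NonAD label is an outcome among treated mice, not a treatment.

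Collagen chains are modified in the endoplasmic reticulum before they wind into a triple helix. Prolyl 4-hydroxylase, a tetramer of alpha subunits (P4ha1, P4ha2 or P4ha3) with the disulfide isomerase P4hb, hydroxylates proline and so stabilizes the helix, and the lysyl hydroxylases (Plod1, Plod2 and Plod3) prepare lysines for sugar addition and for the crosslinks that lysyl oxidase later starts. The chaperone Serpinh1 (HSP47) and the peptidyl-prolyl isomerase Fkbp10 (FKBP65) accompany the chains, and outside the cell the protease Bmp1 cuts off the C-terminal propeptide with the help of the enhancer Pcolce. In the aortic wall these genes are used by smooth muscle cells and by adventitial fibroblasts.

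The sequences just upstream of 4 members are shown because the results below turn on these genes: P4ha3 rose most, P4ha1 and Serpinh1 differed between the control groups of the 2 sexes, and P4ha2 was the member that fell. Each is the 250 bases before the RefSeq start of transcription in build GRCm38.p6, written along the gene's strand. Capitals mark the letters GGGCGG (an Sp1 box) and ACGTG (the core of a hypoxia response element) on either strand. The genes P4ha1, P4ha2 and P4ha3 lie on the forward strand and Serpinh1 on the reverse strand. The window of P4ha2 lies inside the span that GENCODE gives the gene, whose annotated start is further upstream than the RefSeq start used here.
P4ha1 (chr10:59323046-59323295): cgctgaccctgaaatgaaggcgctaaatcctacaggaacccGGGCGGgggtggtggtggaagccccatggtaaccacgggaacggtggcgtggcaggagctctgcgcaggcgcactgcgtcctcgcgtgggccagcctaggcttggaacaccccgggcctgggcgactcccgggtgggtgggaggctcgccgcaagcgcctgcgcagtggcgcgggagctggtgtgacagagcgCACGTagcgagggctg
P4ha2 (chr11:54100674-54100923): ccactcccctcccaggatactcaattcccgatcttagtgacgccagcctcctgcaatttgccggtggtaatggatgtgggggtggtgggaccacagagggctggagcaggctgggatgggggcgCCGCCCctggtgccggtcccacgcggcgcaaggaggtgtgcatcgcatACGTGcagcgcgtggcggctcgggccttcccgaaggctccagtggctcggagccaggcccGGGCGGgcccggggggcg
P4ha3 (chr7:100285270-100285519): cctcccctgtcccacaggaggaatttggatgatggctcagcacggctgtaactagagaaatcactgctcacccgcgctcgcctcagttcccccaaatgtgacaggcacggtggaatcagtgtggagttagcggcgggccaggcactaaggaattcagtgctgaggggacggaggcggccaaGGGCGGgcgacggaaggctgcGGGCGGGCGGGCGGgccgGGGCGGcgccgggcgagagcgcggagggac
Serpinh1 (chr7:99353240-99353489): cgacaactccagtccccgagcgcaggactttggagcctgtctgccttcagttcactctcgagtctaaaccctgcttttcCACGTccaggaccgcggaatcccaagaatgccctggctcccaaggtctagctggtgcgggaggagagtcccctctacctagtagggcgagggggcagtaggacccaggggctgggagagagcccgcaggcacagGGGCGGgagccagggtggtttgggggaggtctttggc

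The P4ha3 promoter held 5 matches to GGGCGG, which began 69, 48, 44, 40 and 30 bases before the start and partly overlapped one another, and no match to ACGTG. The P4ha1 and Serpinh1 windows each held 1 match to each of these motifs, and the P4ha2 window held 2 to GGGCGG and 1 to ACGTG. The letters of a heat shock element, an ER stress response element and a TATA box were searched as well. Of these the P4ha2 window held 1 heat shock match (found in 12.8% of all windows), and the other windows shown held none. The Sp1 box was present in 32.7% and the hypoxia core in 16.6% of the 32851 mouse promoter windows of the same length. Promoter sequences were at hand for 7 of the 10 members. These are matches of letters and say nothing of binding in these aortas.

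Library totals ranged from 13548000 to 17281273 (median 15681340) and no 2 libraries held identical values. The tissue was checked against 8 smooth muscle markers (Acta2, Myh11 and others), whose summed level was 27852 to 60211 CPM (the count scaled to the library size) in MaCon and 30532 to 52200 in FeCon, 11833 to 29449 in MaAAD and 13943 to 31893 in FeAAD. All 8 were lower in AAD than in Con in both sexes. All 7 macrophage markers were higher in AAD, with summed levels of 653 to 3041 CPM in MaAAD and 486 to 4892 in FeAAD, against 166 to 439 in MaCon and 198 to 468 in FeCon. The 4 neutrophil markers that could be tested were higher as well. So were 4 of 7 cartilage markers in both sexes (Col2a1, Acan, Comp and Sox9), with summed levels of 238 to 596 CPM in MaAAD and 174 to 1012 in FeAAD, against 121 to 198 in MaCon and 115 to 189 in FeCon. In FeAAD 1 cartilage marker (Chad), 3 of 6 heart muscle markers (Tnnt2, Actc1 and Myl7), 2 of 3 tested skeletal muscle markers (Acta1 and Tnnt3) and 2 of 7 fibroblast markers (Pi16 and Serpinf1) were lower, and 1 fibroblast marker (Lum) was higher. In MaAAD 2 fibroblast markers (Lum and Pdgfra) were higher. Of 6 endothelial markers Cdh5 and Tie1 were higher in both sexes and Pecam1 lower in FeAAD. In FeNonAD against FeCon the markers Lmod1, Des, Pecam1, Tnnt3 and Chad were lower and Acan was higher. In MaNonAD against MaCon Cd79a, Ms4a1 and Acan were higher. These marker genes were named after their values were seen. In such bulk samples fewer cells of a type and less RNA per cell cannot be told apart, and the part that a changed cell makeup plays in the results below was not tested. A pair of FeAAD libraries stood apart: FeAAD9 had the lowest summed level of 7 fibroblast markers (1118 CPM, when the FeAAD median was 3799), and FeAAD5 had the highest macrophage and neutrophil sums of all. Calls of the members between female groups that changed when both were left out are given with and without them.

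Levels can be set against each other between genes only per length of transcript, so CPM were divided by the length of the longest coding transcript in kilobases. On this scale Serpinh1 was the most abundant member and Pcolce the next in all 6 groups, with Fkbp10 and Bmp1 behind them in either order. The group means of Serpinh1 ran from 478 to 824 CPM per kilobase. P4ha3 was the least abundant member in all 6 groups, at 0.258 to 5.59 CPM per kilobase. The remaining 5 members lay between, and their order changed from group to group.

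**Figure D1:**
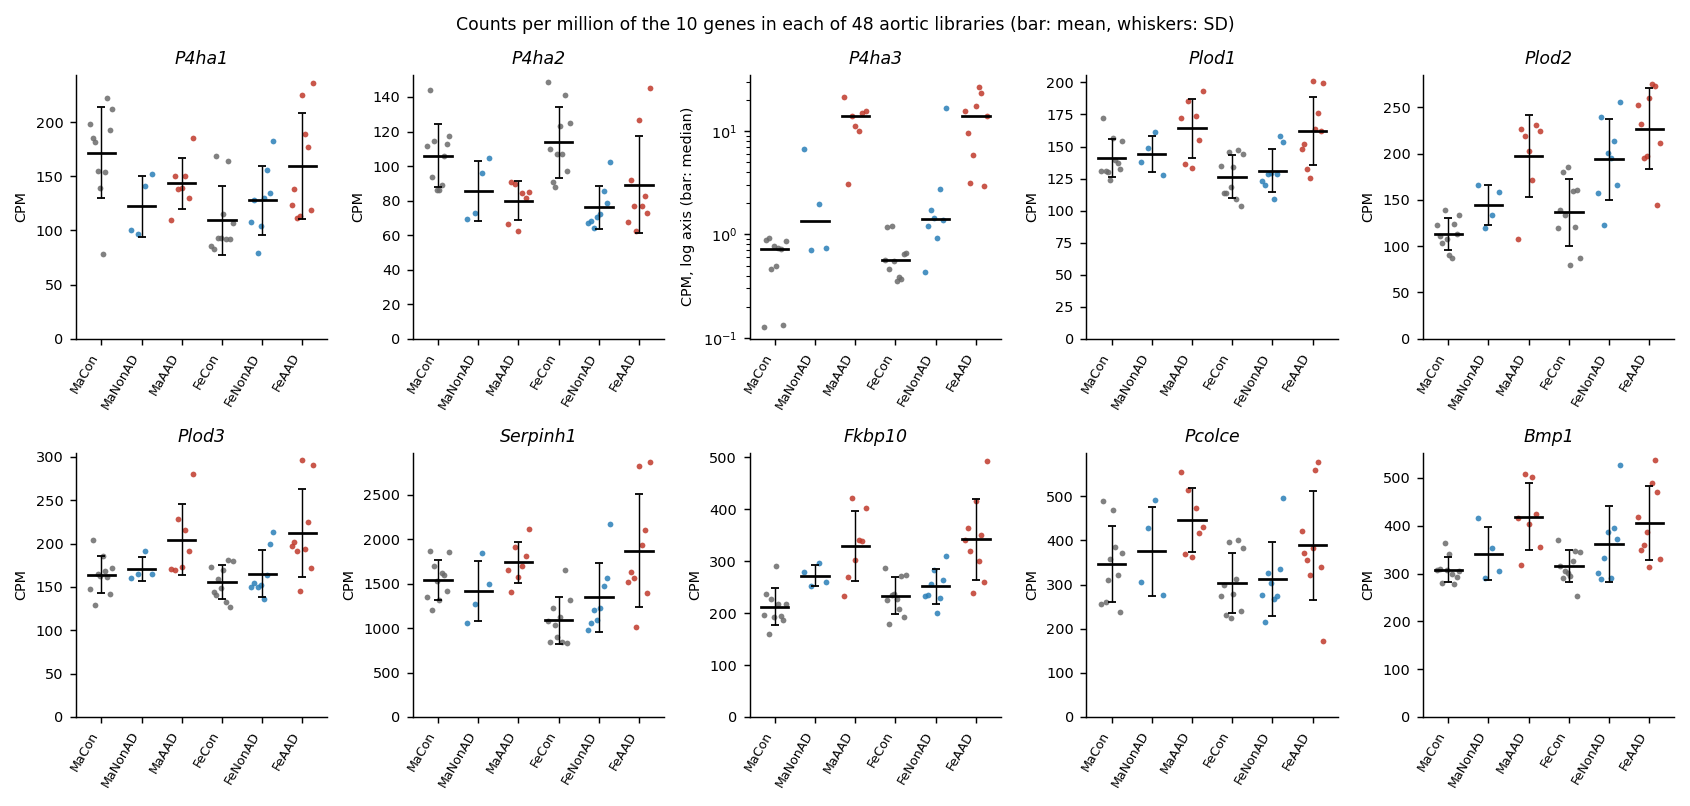
CPM (TMM-scaled) of each member in all 48 libraries, by group. Points are libraries (grey Con, blue NonAD, red AAD), and lines give the mean with SD, except for P4ha3, where the axis is logarithmic and the line is the median. P4ha3 is the only member whose AAD libraries all lie above the Con libraries of the same sex.

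Each comparison asks whether aortas of 1 outcome differ from those of another within a sex, and edgeR's quasi-likelihood F test was used with Benjamini-Hochberg adjustment over 14431 genes. A gene is called changed at an adjusted p below 0.05, whatever its fold. In FeAAD against FeCon 9 of the 10 members were changed, 8 upward and 1 downward, when 44.4% of all tested genes were changed (23.8% upward and 20.6% downward). Their median log2 fold change was 0.50, against 0.00 for all genes. In MaAAD against MaCon 6 members were changed, 5 upward and 1 downward, against 35% of all genes (18.9% upward and 16.1% downward), with a median of 0.34 against -0.03. P4ha3, Plod2, Plod3, Fkbp10 and Bmp1 rose and P4ha2 fell in each of the 2 sexes. P4ha1, Plod1 and Serpinh1 passed the test in females, and whether they behave differently in males is taken up with the sex comparison.

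BAPN without an aortic lesion was accompanied by fewer changes. In FeNonAD against FeCon 3 members were changed, P4ha3 and Plod2 upward and P4ha2 downward, when 14.5% of all genes were (6.87% upward and 7.66% downward). Without FeNonAD8 only P4ha2 was called, with an adjusted p of 0.110 for P4ha3 and 0.0518 for Plod2. In MaNonAD against MaCon edgeR called 0 of 10 members (0.624% of all genes), with 3 at an unadjusted p below 0.05, and DESeq2 also called 0. The male group had 4 aortas, so its tests had less power than the female ones. The stricter rule of the study also asks for a log2 fold change of at least 1. The study applied it to DESeq2 results, and here it was laid over the edgeR values. The only member then called was P4ha3, in FeNonAD against FeCon (2.75% of all genes, a call lost without FeNonAD8), FeAAD against FeCon (12.7%) and MaAAD against MaCon (11.4%), and in FeAAD against FeNonAD (7.04%), with 0 members in MaCon against FeCon (1.51%). The AAD and NonAD comparisons of a sex share their control libraries and are not independent.

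Within treated mice, FeAAD exceeded FeNonAD for 5 members (P4ha3, Plod1, Plod3, Serpinh1 and Fkbp10), against 18.2% of all genes (13.2% upward), and no member was called lower. In MaAAD against MaNonAD edgeR called 0 of 10 (0.409% of all genes), with 3 at an unadjusted p below 0.05, and DESeq2 called 1, P4ha3. Without FeAAD5 and FeAAD9, an alternative chosen after seeing the data, the call held for P4ha3 alone (log2 fold change 1.90, adjusted p = 0.0190), and the genes called among all tested went from 2625 to 1122. The log2 fold changes of the 4 members that lost the call stayed above 0 without the pair, at 0.20 to 0.31, and those of Bmp1 and Pcolce, not called in either case, were larger without it (0.25 and 0.43, against 0.17 and 0.32). In a fit of these 2 groups alone Fkbp10 kept the call (adjusted p = 0.0411), and P4ha3, Plod1, Plod3 and Serpinh1 lost it (adjusted p = 0.0640, 0.0712, 0.0976 and 0.142).

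**Figure D2:**
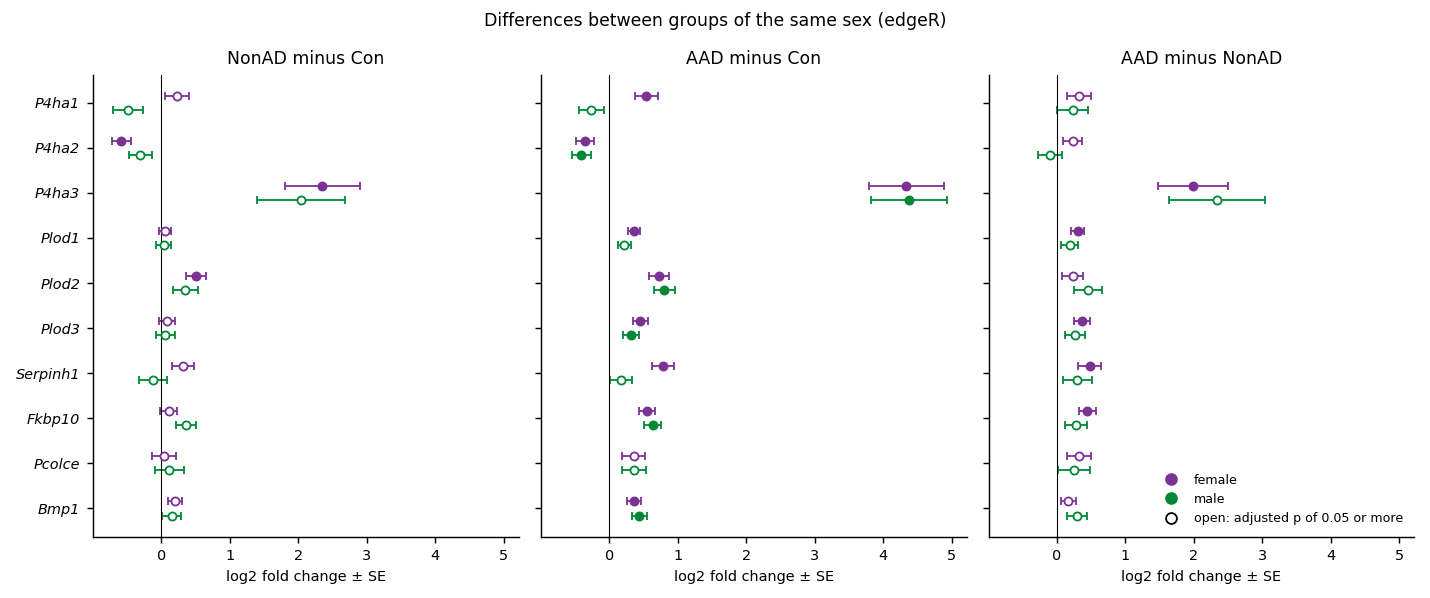
Log2 fold changes of the 10 members in the 4 treated against control and 2 AAD against NonAD comparisons, females in purple and males in green, with approximate standard errors. Filled symbols passed an adjusted p of 0.05 and open symbols did not. P4ha3 shows the largest differences (4.34 in FeAAD and 4.38 in MaAAD against controls), and P4ha2 lies below 0 in all 4 comparisons with controls.

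P4ha3 encodes the third and least abundant alpha subunit of prolyl 4-hydroxylase (chr7:100285520-100319699 in GRCm38). Its level was 0.128 to 0.916 CPM in MaCon (median 0.727) and 0.354 to 1.20 in FeCon (median 0.561), which corresponds to 2 to 19 reads per library. In MaAAD it was 3.10 to 21.2 CPM (median 14.0) and in FeAAD 2.97 to 26.9 CPM (median 14.0). All AAD libraries were thus above all controls of their sex, which holds for 1 of the 10 members, when 6.14% of all genes in males and 3.63% in females were higher without overlap. The log2 fold change was 4.38 ± 0.56 (SE) in males, a fold of 20.8 (adjusted p = 5.73e-08), and 4.34 ± 0.54 in females, a fold of 20.3 (adjusted p = 1.76e-08). Leaving out FeAAD5 and FeAAD9 gave 4.26 in females.

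In treated aortas without a lesion P4ha3 split within the groups. The 4 MaNonAD libraries stood at 6.65, 0.700, 1.97 and 0.735 CPM. Of these, 2 lay above all 10 MaCon libraries, and MaNonAD1 also lay above 1 of 7 MaAAD libraries. The 8 FeNonAD libraries ran from 0.434 to 16.8 CPM with a median of 1.40. Of these, 5 lay above all 10 FeCon libraries and 7 above the FeCon median. The highest, FeNonAD8, exceeded 6 of the 9 FeAAD libraries. The next FeNonAD library stood at 2.76 CPM. The increase over FeCon was 2.35 ± 0.55 (adjusted p = 0.00292). Its size and its call depended on FeNonAD8: without this library the log2 fold change was 1.12 (adjusted p = 0.110). In males the increase over MaCon (2.04 ± 0.64, adjusted p = 0.142) fell to 0.89 (adjusted p = 0.893) without MaNonAD1, and it passed the threshold when FeNonAD8 was left out (adjusted p = 0.0431), which enters through the shared estimate of spread.

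FeNonAD8 and MaNonAD1 also had the lowest smooth muscle sums of their groups (25729 and 20854 CPM) and the highest macrophage sums (680 and 623 CPM). FeAAD exceeded FeNonAD by 1.99 ± 0.51 in P4ha3 (adjusted p = 0.00428), and by 3.22 (adjusted p = 1.34e-05) without FeNonAD8. When only the groups compared entered the fit, the difference had an adjusted p of 0.0640. In males the difference of 2.34 ± 0.70 missed the threshold (adjusted p = 0.0634) and passed it without any 1 of 6 libraries (MaNonAD1, MaAAD1, MaAAD2, FeNonAD8, FeAAD5 or FeAAD8), at adjusted p of 0.0224 to 0.0491, with a log2 fold change of 3.49 without MaNonAD1.

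P4ha2, the alpha subunit common in cartilage and bone (chr11:54100095-54131665), was the member that fell. It stood at 87.8 to 149 CPM in FeCon (median 108) and at 64.3 to 102 in FeNonAD (median 71.3). The FeNonAD libraries were mostly below the controls, with overlap, and the log2 fold change was -0.58 ± 0.13 (adjusted p = 0.00279), a difference that held without FeNonAD8 (-0.65). In FeAAD the level was 62.4 to 145 CPM (median 76.7), with FeAAD9 (145 CPM) and FeAAD5 (127 CPM) well above the median, and the log2 fold change was -0.35 ± 0.13 (adjusted p = 0.0240). Without FeAAD5 and FeAAD9 it was -0.58 (adjusted p = 9.30e-05). The FeAAD call was lost without FeCon1, FeCon7, FeAAD1 or FeAAD4, left out 1 at a time (adjusted p 0.0510 to 0.0593), with scaling by library totals (0.0714) and in a fit of these 2 groups alone (0.0859).

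In males P4ha2 was 86.3 to 144 CPM in MaCon (median 109) and 62.4 to 91.0 in MaAAD (median 84.1), with overlap at the lower end of the controls. The log2 fold change was -0.41 ± 0.14 (adjusted p = 0.0196), and the call was lost without MaCon10, MaAAD1 or MaAAD4 (adjusted p 0.0531 to 0.0669). The 4 MaNonAD libraries averaged 85.7 ± 17.3 CPM (SD), with a log2 fold change of -0.31 ± 0.17 (adjusted p = 0.478).

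P4ha1, the widely expressed alpha subunit (chr10:59323296-59373304), differed between the sexes in the controls. It was 82.4 to 169 CPM in FeCon (median 92.8) and 78.4 to 223 in MaCon (median 184). MaCon5 was the lowest of the male controls, and the next stood at 139 CPM. In FeAAD it was 112 to 236 CPM (median 138), higher than in FeCon by 0.54 ± 0.17 (adjusted p = 0.00742), but by 0.36 (adjusted p = 0.0866) without FeAAD5 and FeAAD9, which were the highest FeAAD libraries at 225 and 236 CPM. In MaAAD it was 109 to 186 CPM (median 140), a difference from MaCon of -0.26 ± 0.18 (adjusted p = 0.271). The 4 MaNonAD libraries stood at 100.5, 96.6, 141 and 152 CPM, with a difference of -0.49 ± 0.22 (adjusted p = 0.347), and FeNonAD at 79.5 to 183 CPM, with a difference of 0.23 ± 0.17 (adjusted p = 0.406).

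Taken per kilobase, the 3 alpha subunits can be expressed as shares of their sum. P4ha2 made up 64.9% ± 7.0 (SD, n = 10) of the sum in FeCon, 51.1% ± 3.8 in FeNonAD (n = 8) and 47.0% ± 5.5 in FeAAD (n = 9). In males the shares were 52.8% ± 6.0 in MaCon, 54.7% ± 1.8 in MaNonAD and 46.3% ± 3.8 in MaAAD. P4ha1 made up 34.7% ± 7.0 in FeCon and between 43.6% and 47.2% on average in the other 5 groups. P4ha3 rose from 0.371% ± 0.225 in FeCon to 6.39% ± 3.79 in FeAAD and from 0.297% ± 0.143 in MaCon to 7.28% ± 3.60 in MaAAD, with 13.7% in the highest library. The summed level of the 3 genes averaged 66.6 to 89.7 CPM per kilobase over the 6 groups. FeCon had the lowest mean share of P4ha1 and the highest of P4ha2, with overlap: 1 FeCon library stood at 50.9% P4ha1, and MaCon5 at 33.6% and FeNonAD3 at 40.3%. These shares depend on the transcript length taken for each gene and were not tested.

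**Figure D3:**
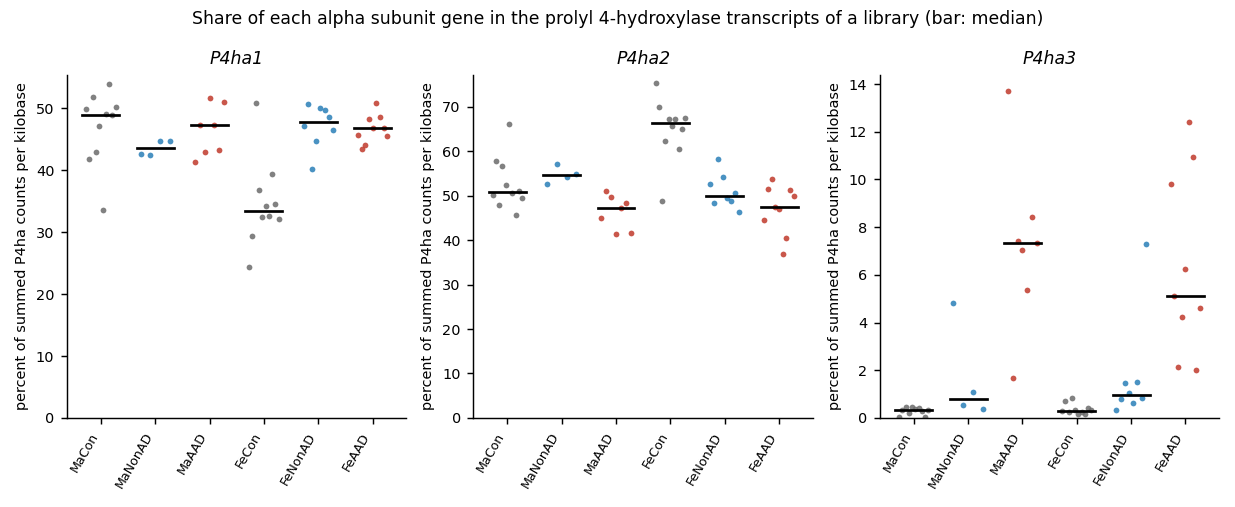
Share of P4ha1, P4ha2 and P4ha3 in their summed counts per kilobase, in percent, for each of the 48 libraries by group, with the median as a bar. The FeCon median is the lowest for P4ha1 (33.4%) and the highest for P4ha2 (66.4%), and P4ha3 reaches 13.7% in MaAAD.

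Among the lysyl hydroxylases, Plod2, which hydroxylates the telopeptides and so sets the type of crosslink (chr9:92542223-92608428), rose most. It was 87.3 to 139 CPM in MaCon (median 112) and 108 to 232 in MaAAD (median 219). All MaAAD libraries but MaAAD1, at 108 CPM, lay above the highest control. The log2 fold change was 0.80 ± 0.15 (adjusted p = 4.96e-05). In females it was 79.5 to 186 CPM in FeCon (median 136) and 145 to 276 in FeAAD (median 232), with partial overlap and a log2 fold change of 0.73 ± 0.15 (adjusted p = 5.75e-05). FeNonAD, at 123 to 256 CPM (median 198), was also higher than FeCon by 0.50 ± 0.15 (adjusted p = 0.0177, or 0.44 with an adjusted p of 0.0518 without FeNonAD8). The 4 MaNonAD libraries averaged 145 ± 21.6 CPM, with a difference of 0.35 ± 0.18 (adjusted p = 0.450). FeAAD and FeNonAD differed by 0.23 ± 0.15 (adjusted p = 0.306).

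Plod1, which hydroxylates helical lysines (chr4:147909753-147936767), was 103 to 147 CPM in FeCon (median 126), 109 to 158 in FeNonAD (median 128) and 125 to 201 in FeAAD (median 162). The 2 highest FeAAD libraries were again FeAAD5 and FeAAD9. FeAAD exceeded FeCon by 0.36 ± 0.09 (adjusted p = 0.00101) and FeNonAD by 0.31 ± 0.10 (adjusted p = 0.0193), the latter lost without FeAAD5 or FeAAD9 (adjusted p 0.0530 to 0.0650) and without both (0.21, adjusted p = 0.192). MaAAD, at 133 to 193 CPM (median 172), and MaCon, at 124 to 172 CPM (median 135), differed by 0.22 ± 0.10 (adjusted p = 0.0693). That comparison lay close to the threshold: it passed under DESeq2 (adjusted p = 0.0444) and without any 1 of 16 libraries (adjusted p 0.0198 to 0.0425).

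Plod3, which also adds sugars to hydroxylysine (chr5:136987019-136996648), was 126 to 181 CPM in FeCon (median 154), 136 to 214 in FeNonAD (median 153) and 145 to 296 in FeAAD (median 198). FeAAD exceeded FeCon by 0.45 ± 0.11 (adjusted p = 0.000786), and by 0.30 (adjusted p = 0.0192) without FeAAD5 and FeAAD9. FeAAD exceeded FeNonAD by 0.36 ± 0.12 (adjusted p = 0.0241), a call lost without FeNonAD5, FeAAD5 or FeAAD9 (adjusted p 0.0537 to 0.0911) and without the latter pair (0.20, adjusted p = 0.300). In males the levels were 129 to 204 CPM in MaCon (median 164) and 170 to 280 in MaAAD (median 192), a difference of 0.32 ± 0.12 (adjusted p = 0.0301) that was lost without MaCon2, MaCon8, MaAAD5 or MaAAD7 (adjusted p 0.0524 to 0.146). As a share of the 3 Plod genes per kilobase, Plod2 went from 25.0% ± 3.6 in MaCon to 32.3% ± 6.3 in MaAAD and from 30.2% ± 7.9 in FeCon to 35.2% ± 4.9 in FeAAD, with wide overlap.

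Serpinh1, the procollagen chaperone (chr7:99345376-99353239), was 828 to 1656 CPM in FeCon (median 1058), 977 to 2169 in FeNonAD (median 1214) and 1018 to 2872 in FeAAD (median 1632). FeAAD9 and FeAAD5 were the highest libraries, at 2872 and 2825 CPM, and the groups overlapped. FeAAD exceeded FeCon by 0.79 ± 0.16, a fold of 1.72 (adjusted p = 5.75e-05), and by 0.56 (adjusted p = 0.00215) without this pair. FeAAD exceeded FeNonAD by 0.48 ± 0.17 (adjusted p = 0.0376), a call lost without any 1 of 9 libraries (adjusted p 0.0531 to 0.132) and without the pair (0.25, adjusted p = 0.426). In males Serpinh1 was 1199 to 1864 CPM in MaCon (median 1565), 1053 to 1846 in MaNonAD (n = 4) and 1412 to 2112 in MaAAD (median 1705). MaAAD and MaCon overlapped widely and differed by 0.17 ± 0.17 (adjusted p = 0.443).

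Fkbp10, the isomerase that works with the lysyl hydroxylases (chr11:100415697-100424824), rose in both sexes. It was 159 to 291 CPM in MaCon (median 207) and 234 to 422 in MaAAD (median 339), a log2 fold change of 0.64 ± 0.12 (adjusted p = 5.35e-05). In females it was 179 to 288 CPM in FeCon (median 231), 201 to 310 in FeNonAD (median 245) and 239 to 492 in FeAAD (median 341). The AAD and control ranges overlapped only in part. FeAAD exceeded FeCon by 0.55 ± 0.12 (adjusted p = 0.000128) and FeNonAD by 0.44 ± 0.12 (adjusted p = 0.00843), with FeAAD9 and FeAAD5 at 492 and 415 CPM. Without these libraries the differences were 0.42 (adjusted p = 0.00256) and 0.31 (adjusted p = 0.105). The 4 MaNonAD libraries ran from 252 to 298 CPM, which was 0.36 ± 0.15 above MaCon (adjusted p = 0.280).

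Bmp1, the procollagen C-proteinase (chr14:70474558-70520234), was 279 to 364 CPM in MaCon (median 306) and 318 to 509 in MaAAD (median 417). In females it was 254 to 371 CPM in FeCon (median 311), 289 to 528 in FeNonAD (median 353) and 315 to 538 in FeAAD (median 387). AAD exceeded Con by 0.44 ± 0.11 in males (adjusted p = 0.00152) and by 0.37 ± 0.10 in females (adjusted p = 0.00377), with overlap in both. Unlike for Serpinh1 and Fkbp10, FeAAD5 and FeAAD9 were the lowest FeAAD libraries for Bmp1, at 315 and 330 CPM.

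Pcolce, which enhances Bmp1 (chr5:137605103-137613784), was 237 to 490 CPM in MaCon (median 339), 361 to 556 in MaAAD (median 431), 224 to 400 in FeCon (median 288) and 172 to 578 in FeAAD (median 371). FeAAD9 was the lowest FeAAD library, and the next stood at 320 CPM. The differences of 0.37 ± 0.18 in males (adjusted p = 0.103) and 0.36 ± 0.17 in females (adjusted p = 0.0735) missed the threshold. They passed it without MaCon5 or MaCon10 in males (adjusted p 0.0419 to 0.0493) and without FeCon3, FeCon7 or FeAAD9 in females (adjusted p 0.0149 to 0.0457; 0.48 with an adjusted p of 0.0176 without FeAAD5 and FeAAD9), and in both when libraries were scaled by their totals (0.0281 and 0.0186). FeNonAD (216 to 497 CPM, median 290) and FeCon differed by 0.04 ± 0.17 (adjusted p = 0.905).

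The sexes were compared within each condition to ask where a sex difference exists among untreated and treated mice. No group was sampled before treatment. In controls 2 of 10 members were changed, both higher in males, when 14.3% of all genes were changed (6.38% higher in males). P4ha1 was higher in MaCon than in FeCon by 0.65 ± 0.16 (fold 1.57, adjusted p = 0.00582), and Serpinh1 by 0.51 ± 0.15 (fold 1.42, adjusted p = 0.0199). Both kept their call without any 1 library. In MaNonAD against FeNonAD (0.0624% of all genes called) and MaAAD against FeAAD (0.0901%) edgeR called 0 members, with 1 and 0 at an unadjusted p below 0.05, and DESeq2 called 0 in each. The differences between AAD aortas were -0.15 for P4ha1 and -0.11 for Serpinh1. The treated groups hold survivors only, and the paper reports more deaths from rupture among treated males than among treated females. The part that this unequal loss plays in the sex comparisons was not tested.

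Whether the response to BAPN with a dissection or aneurysm differed between the sexes was tested as an interaction. None of the 10 members passed (1.34% of all genes did), with 2 at an unadjusted p below 0.05, P4ha1 and Serpinh1, and DESeq2 called 0. The male minus female difference in the AAD effect was -0.80 for P4ha1 (95% interval -1.29 to -0.32, adjusted p = 0.0818) and -0.61 for Serpinh1 (-1.06 to -0.17, adjusted p = 0.163). Without FeAAD5 and FeAAD9 they were -0.59 (adjusted p = 0.151) and -0.36 (adjusted p = 0.359). For P4ha1 it passed without MaCon5, FeCon2 or FeCon7 (adjusted p 0.0280 to 0.0457). For Plod1, the third member called in females alone, the difference was -0.14 (adjusted p = 0.649). The other interactions called 0 of 10 members by either tool: for the NonAD effect (0.416% of all genes) 1 had an unadjusted p below 0.05, and for AAD against NonAD (0 of all genes) 0 had.

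The members were also set against their substrate, as the log2 ratio of a member's CPM (plus 0.01) to the summed CPM of Col1a1 and Col1a2, the collagen I chains. Col1a1 itself rose by 1.28 ± 0.16 in FeAAD and by 1.14 ± 0.17 in MaAAD, so that a gene which did not rise as much has a lower ratio. P4ha2 had the most negative difference from the controls in FeNonAD, FeAAD and MaAAD: its mean ratio was -5.99 ± 0.22 (SD) in FeCon, -7.08 ± 0.21 in FeNonAD and -7.33 ± 0.58 in FeAAD. In males it was -6.29 ± 0.27 in MaCon, -6.96 ± 0.33 in MaNonAD and -7.52 ± 0.38 in MaAAD. The ratios of FeNonAD, FeAAD and MaAAD lay below those of their controls without overlap. MaNonAD overlapped MaCon, and its difference of -0.67 was smaller in size than that of P4ha1 (-0.83). In FeAAD this held for 2 of 10 members, P4ha2 and Pcolce, when it held for 23% of all genes, in MaAAD for P4ha2 and Bmp1 (27.8% of all genes) and in FeNonAD for P4ha2 alone (3.61% of all genes). The share of members was thus near that of all genes in the AAD groups. The ratio of P4ha3 was higher without overlap, by 3.15 in FeAAD (0.52% of all genes) and 3.61 in MaAAD (1.35%), which were the largest differences in either direction. That of Plod2 stayed closest to the controls, at -0.20 and -0.05.

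Relative to collagen I, the other 7 members had differences between AAD and Con of -0.20 to -1.06 across the 2 sexes. Serpinh1 differed by -0.21 in females, where FeAAD5 and FeAAD9 had ratios of -2.02 and -2.12 and the other 7 FeAAD libraries -2.81 or lower, and by -0.66 in males. P4ha1 differed by -0.42 and -1.06, Bmp1 by -0.60 and -0.40 and Pcolce by -0.64 and -0.44. For P4ha1, too, FeAAD5 and FeAAD9 had the highest FeAAD ratios (-5.66 and -5.73), with the other 7 at -6.53 or lower. This pair was also highest in FeAAD for P4ha2, Plod1, Plod3 and Fkbp10. Against Col3a1 in place of collagen I, all 10 members kept the direction of the difference between AAD and Con in each sex. The overlap changed: 0 members were then lower without overlap in FeAAD (26.9% of all genes) and 4 in MaAAD (P4ha2, Plod1, Serpinh1 and Bmp1, when 36.8% of all genes were). These ratios are a description and were not tested.

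**Figure D4:**
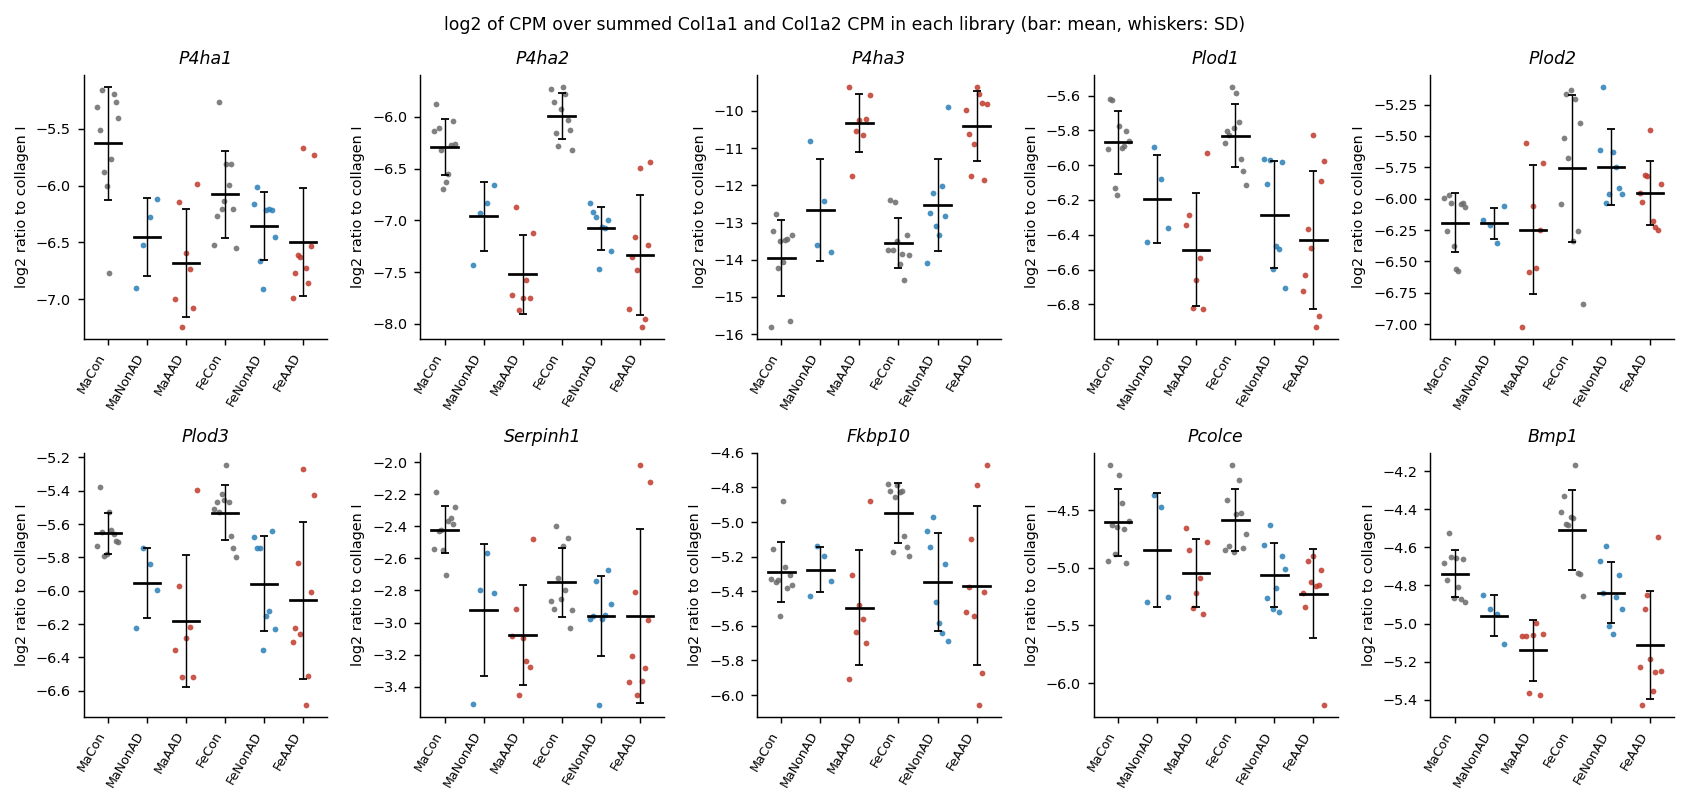
Log2 ratio of each member's CPM to the summed CPM of Col1a1 and Col1a2, by group, with points for libraries and lines for the mean and SD. P4ha2 falls from -5.99 in FeCon to -7.33 in FeAAD, while P4ha3 rises in both sexes.

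The rest of the pathway was described from a list of 57 genes for modification, folding and export, processing, crosslinking, cofactor supply and the collagen chains themselves, of which 53 could be tested. In FeAAD against FeCon 25 were higher and 4 lower (23.8% and 20.6% of all genes), with a median log2 fold change of 0.38 against 0.00 for all genes. In MaAAD against MaCon 23 were higher and 3 lower (18.9% and 16.1% of all genes), with a median of 0.20 against -0.03. In FeNonAD 8 were higher and 1 lower than in FeCon (6.87% and 7.66% of all genes). In MaNonAD against MaCon (0.624% of all genes) edgeR called 0, with 8 at an unadjusted p below 0.05, and DESeq2 called 2. FeAAD exceeded FeNonAD for 19 and was lower for 2 (18.2% of all genes were called), counts that fell to 8 in all without FeAAD5 and FeAAD9.

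In the parts of this list, counts are read against the 23.8% of all genes that were higher and 20.6% lower in FeAAD, and the 18.9% and 16.1% in MaAAD. Of 10 other modifying enzymes, 4 rose in FeAAD, and 3 rose and 1 fell in MaAAD, when 44.4% and 35% of all genes were called in either direction. P3h1, which adds 3-hydroxyproline, rose by 0.55 ± 0.10 in FeAAD and 0.63 ± 0.11 in MaAAD. P4hb, the beta subunit of prolyl 4-hydroxylase, rose by 0.65 ± 0.12 and 0.52 ± 0.13, and Colgalt1, a collagen galactosyltransferase, by 0.57 ± 0.08 and 0.35 ± 0.09. Tmem38b, an ion channel of the endoplasmic reticulum named here after its values were seen, was the one that fell in MaAAD (-0.50 ± 0.12, adjusted p = 0.000620).

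Of 17 other folding and export genes, 6 rose and 2 fell in FeAAD and 5 rose in MaAAD (44.4% and 35% of all genes were called). The disulfide isomerase Pdia6 rose by 1.11 ± 0.19 and 0.51 ± 0.20, the retrieval receptor Kdelr2 by 0.68 ± 0.13 and 0.52 ± 0.14, and the chaperone Hsp90b1 by 0.70 ± 0.15 and 0.42 ± 0.16. The pair that fell in FeAAD, also named after their values were seen, were Mia2 (-0.19) and Klhl12 (-0.21), both of which act in the export of large cargo.

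Of 6 other processing genes, 2 rose and 2 fell in FeAAD and 2 rose and 1 fell in MaAAD, against the same 44.4% and 35% of all genes. Tll1, a protease related to Bmp1, rose by 2.07 ± 0.37 and 2.05 ± 0.39 from a low level (0.142 to 1.31 CPM in FeCon, 0.765 to 4.23 in FeAAD). Adamts3, which removes N-terminal propeptides, rose by 0.56 ± 0.17 and 0.86 ± 0.18. Pcolce2, the paralog of Pcolce, fell by 0.76 ± 0.13 in FeAAD and by 0.71 ± 0.14 in MaAAD, when Pcolce itself differed by 0.36 and 0.37 without passing the test.

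Of the 5 genes of the lysyl oxidase family, which BAPN inhibits, 3 rose in FeAAD and 4 in MaAAD (23.8% and 18.9% of all genes were higher). Lox rose by 1.21 ± 0.25 in FeAAD and 1.08 ± 0.26 in MaAAD, Loxl4 by 0.69 ± 0.17 and 1.36 ± 0.18, and Loxl2 by 0.61 ± 0.16 and 1.03 ± 0.16. Of the 13 collagen chains tested, 9 rose in FeAAD, and 8 rose and 1 fell (Col11a2, -0.62, named after its value was seen) in MaAAD, against the same shares. Col1a2 rose by 0.77 ± 0.13 and 0.65 ± 0.14 and Col3a1, of the fibrillar collagen III, by 1.14 ± 0.15 and 1.00 ± 0.16.

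The cartilage collagens Col11a1 (5.34 ± 0.82 and 5.46 ± 0.89) and Col2a1 (5.61 ± 0.90 and 4.42 ± 0.91) showed the largest changes of the list. In single libraries Col2a1 ranged from 0.296 to 207 CPM in FeAAD. Of the 2 cofactor genes, the proline-recycling Pepd rose by 0.44 ± 0.10 and 0.33 ± 0.11, and the ascorbate carrier Slc23a2 differed by 0.04 and 0.11 (adjusted p = 0.818 and 0.491).

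**Figure D5:**
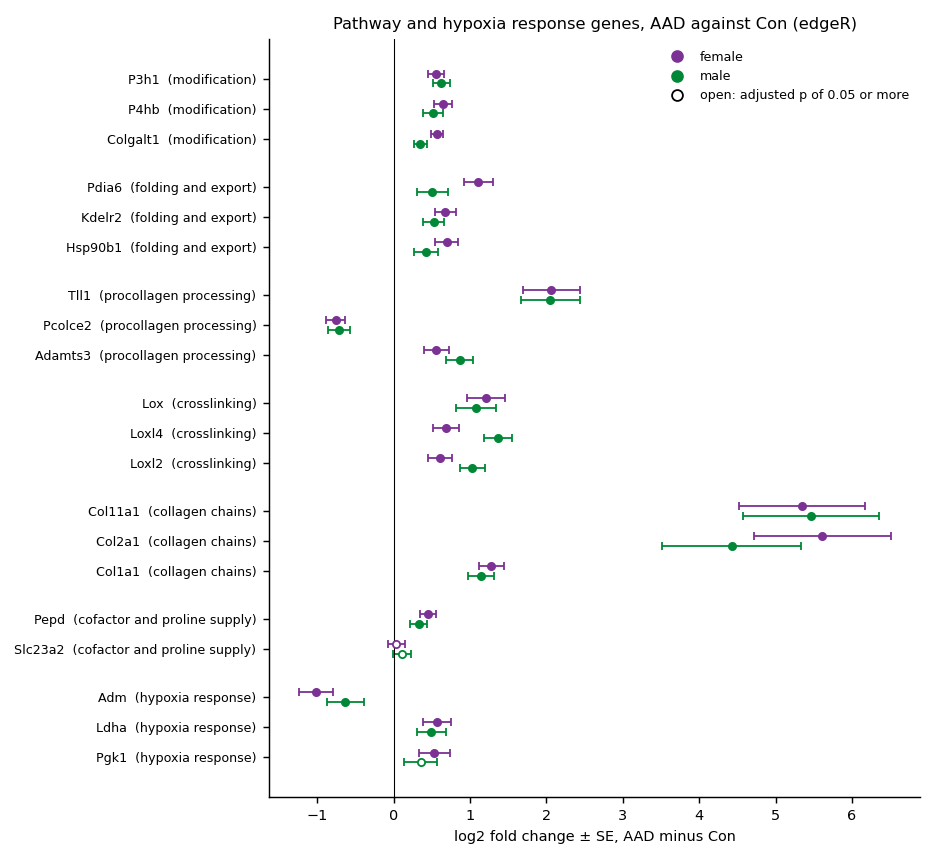
Log2 fold changes of the named pathway and hypoxia response genes outside the 10 members, in AAD against Con, females in purple and males in green, with approximate standard errors and open symbols for an adjusted p of 0.05 or more. Col11a1 and Col2a1 lie farthest to the right and Pcolce2 and Adm lie below 0 in both sexes.

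A list of 10 hypoxia response genes that could be tested, set beside the P4ha genes because several prolyl hydroxylases are known hypoxia targets, was called at shares near or under those of all genes: 2 rose and 3 fell in FeAAD (44.4% of all genes changed), and 1 rose and 1 fell in MaAAD (35%). Ldha rose by 0.57 ± 0.18 and 0.50 ± 0.19, Pgk1 by 0.54 ± 0.20 in FeAAD (0.35 ± 0.21, adjusted p = 0.203, in MaAAD), and Adm fell by 1.02 ± 0.22 and by 0.63 ± 0.24. Among 7 fibroblast activation genes, the matrix glycoproteins Cthrc1 (5.48 ± 0.62 in FeAAD and 5.42 ± 0.62 in MaAAD) and Tnc (2.37 ± 0.24 and 1.89 ± 0.25) rose in both sexes. So did Postn, Fap and Fn1, named after their values were seen, when 23.8% and 18.9% of all genes were higher in FeAAD and MaAAD.

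Genes whose level followed each member from mouse to mouse were sought by Pearson's r of log2(CPM + 1) after subtraction of the group means, over 48 libraries. These libraries share their dissection, composition and depth, so the values are descriptive. P4ha1 was most like the cytosolic chaperones Hsp90aa1 (r = 0.917, rho = 0.907), Hspa4l (0.875) and Hspa8 (0.853). Without its 2 most distant libraries, MaCon5 and FeCon2, the first was 0.909. Hspa8 and Hspa4l were higher in MaCon than in FeCon as P4ha1 was (0.62 and 0.68, adjusted p = 0.0378 and 0.0215), and Hsp90aa1 by 0.55 (adjusted p = 0.0525). In MaAAD against MaCon these 3 fell by 1.18, 0.76 and 1.15.

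Serpinh1 was most like Calr (r = 0.931), Creld2 and Pdia6, and Plod3 like Sec61a1 (0.930), Surf4 and P4hb, genes of the endoplasmic reticulum. Fkbp10 was most like P3h1 (0.886), P4hb and Kdelr3, and Plod1 like Prkcsh (0.884), Plod3 and Sh3bgrl3. P4ha3 was most like Cthrc1 (0.876), Fbn2 (0.833) and Tnfsf8 (0.828), though within single groups r went as low as 0.156, 0.076 and -0.04 for these 3. By rho the last 2 were not among the 3 closest genes. P4ha2 was most like Ccdc6 (0.860), Surf4 and Plpp1, and Pcolce like Igfbp4 (0.901), Serpinf1 and Clec11a. Plod2 was most like Agfg1 (0.816), Ankfy1 and Aida, and Bmp1 like Shc2 (0.805), Col16a1 and Chpf, but none of these 6 was among the 3 closest genes by rho, and within single groups r went as low as 0.360 for Shc2 and 0.315 for Col16a1. Nor were Hspa8 for P4ha1, Surf4 and Plpp1 for P4ha2, Plod3 for Plod1, Surf4 for Plod3, Creld2 for Serpinh1 and Clec11a for Pcolce, and r within single groups went as low as 0.190 for Creld2 and 0.393 for Hspa8.

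Among the members themselves the 45 pairs had r from -0.18 to 0.862 with a median of 0.336. The highest were Plod1 with Plod3 (0.862), Plod3 with Fkbp10 (0.859) and Plod3 with Serpinh1 (0.831), and 14 pairs exceeded 0.5. The 10 members did not vary as 1 block: 5 pairs were below 0.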

How the data were processed

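RNA was sequenced from the thoracic aorta of 48 mice, 1 strand-specific library each. The authors deposited 1 table of expected counts per gene and library. Per the submitters' processing notes Bowtie2, RSEM 1.3.1 and the GRCm39 build were used, and 4.99% of the values were not whole, none of them in the 10 genes described. Values were rounded to whole counts, although the test had been planned for raw counts. Columns were assigned to mice by matching names, and 0 other per-sample columns were left unused. The total per library limits precision to that of its counts.

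Genes were filtered with filterByExpr, scaled by TMM and tested in 1 quasi-likelihood fit of all 48 libraries with 6 group means (edgeR 4.0.16, limma 3.58.1, R 4.3.3). 14431 genes were tested. The standard errors printed are approximate, taken from the F statistic. P-values measure the spread between mice. The code was tested on simulated data. DESeq2 1.42.0, other scalings, no low-count filter, fits to the compared groups only, the study's fold threshold, a block for replicate number and leaving out each library were tried as alternatives. Levels are TMM-scaled CPM.

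The members and all gene lists were chosen with earlier results of these data known. The genes named are all members, the 3 genes of each list with the largest mean absolute change in AAD against Con, 5 fixed genes (Col1a1, Col1a2, Col3a1, P4hb and Lox) and, for each member, the 3 with the highest r. A few others (single called genes of a list and of the marker lists) were named after their values were seen, as stated beside them. A gene that this rule names is not reported here. Gene positions (GENCODE M21) and promoters (RefSeq) are in GRCm38, another build than the one the counts were made on, and the count table holds no coordinates. Promoters matched 7 of 10 members (not Plod2, Fkbp10 and Bmp1).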

Additional observations from a re-analysis of the deposited data

Results flagged for a closer look

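The 10 members were searched in each of the 6 groups, 60 checks in all, for a library farther from the others than Dixon's 95% limit allows, which chance alone exceeds in about 1 in 20 groups. There were 5 such values. P4ha1 stood at 78.4 CPM in MaCon5, when the nearest MaCon library was at 139 CPM. P4ha3 stood at 3.10 CPM in MaAAD2 (nearest 10.0 CPM) and at 16.8 CPM in FeNonAD8 (nearest 2.76 CPM). Plod2 was at 107.8 CPM in MaAAD1 (nearest 171.5 CPM), and Pcolce at 171.5 CPM in FeAAD9 (nearest 320 CPM). FeAAD9 also had the lowest summed fibroblast (1118 CPM) and endothelial (256 CPM) marker levels of its group, and MaAAD1 the lowest smooth muscle sum (11833 CPM).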

How the results depend on the processing

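Over 56 settings the log2 fold changes of the 10 members gave 6719 values, of which 6635 stayed on the same side of the threshold, 40 lost a call and 44 gained one. None of the called values changed sign, and 115 values of 33 uncalled gene and comparison pairs did. The study's rule (a log2 fold change of at least 1 and an adjusted p below 0.05) was laid over the edgeR values. The members called then fell from 3 to 1 in FeNonAD against FeCon, 9 to 1 in FeAAD against FeCon, 6 to 1 in MaAAD against MaCon, 5 to 1 in FeAAD against FeNonAD and 2 to 0 in MaCon against FeCon, and the other pathway genes from 9 to 1, 29 to 8, 26 to 10, 21 to 3 and 7 to 0. Fits to the compared groups alone gave 1 member and 9 pathway genes in FeAAD against FeNonAD, and 5 pathway genes (0 before) in MaNonAD against MaCon. Without FeAAD5 and FeAAD9 these 2 comparisons gave 1 member with 8 pathway genes and 3 pathway genes, MaAAD against MaNonAD gave 1 member and 3 pathway genes (0 before), and the sex interaction in AAD against Con 1 pathway gene (0 before). In the male NonAD comparisons DESeq2 called 2 pathway genes against MaCon, and 1 member and 2 pathway genes in MaAAD against MaNonAD. Total-count scaling called 1 pathway gene in each, and DESeq2 size factors 1 in the latter.

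Leaving out 1 library at a time, the members called ranged from 1 to 3 in FeNonAD against FeCon, 0 to 1 in MaNonAD against MaCon, 8 to 10 in FeAAD against FeCon, 5 to 8 in MaAAD against MaCon, 2 to 5 in FeAAD against FeNonAD, 0 to 1 in MaAAD against MaNonAD and in the AAD against Con interaction, and stayed at 2 in MaCon against FeCon and 0 elsewhere. The pathway counts ranged over 7 to 11, 0 to 2, 26 to 33, 23 to 27, 15 to 25, 0 to 5, 0 to 1 and 4 to 8 in the same order of comparisons.

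Samples of the same replicate number did not deviate together (mean r of -0.07 to 0.16 over the comparisons, with a negative lowest r in each), so the numbers were not taken as pairs. A block for the replicate number gave 3, 0, 9, 6, 4, 0 and 2 members in the comparisons in the order above, the interaction apart, with 3 calls changed: Serpinh1 lost its call in FeAAD against FeNonAD (0.40, adjusted p = 0.0638), P4ha2 lost its call in MaAAD against MaCon (-0.32, adjusted p = 0.0684) and Plod1 gained one there (0.25, adjusted p = 0.0234). The depth limits P4ha3 most, which had 2 to 19 reads in control libraries.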
